A study of Mus musculus with 12 samples.

Results

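Cells carrying a tethered Nrf2-MafG protein, T-N2G, were compared with mock cells while both were exposed to diethyl maleate (DEM), an electrophile that reacts with glutathione and cysteine thiols. The comparison used 6 of the 12 polyadenylated RNA libraries of the series. Its members were the 3 libraries titled T-N2G with DEM and the 3 titled mock with DEM, matched by the replicate number in their titles. All 6 came from immortalized mouse embryonic fibroblasts of the genotype MafF-/-::MafG-/-::MafK-/-, which lack the 3 small Maf proteins. All had received 100 µM DEM for 12 h in DMEM with fetal bovine serum. The mock group had no further allele in its label, and the other group had T-N2G added, spelled T-NG2 in its genotype label. The other 6 libraries were mock and T-N2G cells given vehicle for the same time. They serve below for spread, for side by side values and for a test of whether the T-N2G effect differed between DEM and vehicle. The vector and promoter of T-N2G, the number of clones behind each cell population and whether replicates were separate cultures are not given in the sources used here. The p-values below therefore measure the spread between these libraries, which may be technical.

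Nrf2, encoded by Nfe2l2, is a transcription factor of the cap'n'collar (CNC) family that is held down by the adaptor Keap1 in unstressed cells and accumulates when electrophiles modify Keap1. It binds DNA as a heterodimer with a small Maf protein (MafF, MafG or MafK), and cells without small Mafs lack its usual partners. T-N2G joins Nrf2 to MafG in one chain, so that the pair forms without another Maf. Known targets of Nrf2 in fibroblasts and liver make and use glutathione, reduce quinones, regenerate thioredoxin, supply NADPH, and break down heme and store its iron.

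The DNA element that the Nrf2-Maf pair recognizes, the antioxidant response element, has the core TGACNNNGC, where N is any base. The genes printed here were higher in T-N2G cells and hold this core near their start, and they are shown because their values are among those the results turn on. Each run is the strand of the gene, 5′ to 3′, from 250 bases before to 50 bases after a start site in RefSeq (GRCm38.p6), with the core in capitals. In all of these runs the core lies on the opposite strand and so reads GCNNNGTCA. Gclm encodes the modifier subunit of glutamate-cysteine ligase, Srxn1 encodes sulfiredoxin, and Txnrd1 encodes cytosolic thioredoxin reductase, with one of its 3 listed starts printed.
Gclm, chr3:122245307-122245606, plus strand: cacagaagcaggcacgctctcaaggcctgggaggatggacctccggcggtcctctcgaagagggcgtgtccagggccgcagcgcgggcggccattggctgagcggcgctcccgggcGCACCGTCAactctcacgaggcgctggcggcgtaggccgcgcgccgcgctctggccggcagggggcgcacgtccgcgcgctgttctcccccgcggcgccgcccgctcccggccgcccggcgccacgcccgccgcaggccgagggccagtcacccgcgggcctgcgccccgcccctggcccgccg
Srxn1, chr2:152105274-152105573, plus strand: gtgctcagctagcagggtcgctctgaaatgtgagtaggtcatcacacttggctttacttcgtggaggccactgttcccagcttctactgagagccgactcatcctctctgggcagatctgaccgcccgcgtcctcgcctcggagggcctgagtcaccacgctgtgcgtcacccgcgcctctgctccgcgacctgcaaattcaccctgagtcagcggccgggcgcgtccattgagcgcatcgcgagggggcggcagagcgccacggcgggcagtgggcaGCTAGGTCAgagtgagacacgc
Txnrd1, chr10:82858956-82859255, plus strand: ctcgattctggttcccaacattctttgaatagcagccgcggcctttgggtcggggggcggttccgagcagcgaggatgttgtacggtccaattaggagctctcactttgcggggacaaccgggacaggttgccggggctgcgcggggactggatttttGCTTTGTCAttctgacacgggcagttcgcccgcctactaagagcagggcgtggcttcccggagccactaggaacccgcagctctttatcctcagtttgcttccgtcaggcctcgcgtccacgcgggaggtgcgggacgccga
The core, on either strand, was in 12.4% of all 32851 promoter windows of the table. Of the 12469 genes tested, 9920 had at least 1 window and 17.0% of these held the core in one of them. Among genes called at least 2-fold higher in T-N2G cells with the replicate block described next, 27 of 125 with a window held it (21.6%). Among those at least 2-fold lower 11 of 65 held it (16.9%). The contrast was wider among the genes called both with and without the block. There, 26 of 94 at least 2-fold higher (27.7%) and 3 of 24 at least 2-fold lower (12.5%) held it. Both higher sets include Mafg and Nfe2l2, which hold the core but whose fragments may come from T-N2G. Among genes called both with and without the block, the mean number of windows per gene was 1.49 in the higher set and 1.17 in the lower set. It was 1.28 over all tested genes. A gene with more windows has more chances to hold the core, and the shares were not adjusted for this. Gstm1, Nqo1, Slc7a11, Fth1 and Ftl1, whose values also differed, had none in their windows. A match is a description of letters in this stretch and not a measured binding site.

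The 6 libraries held 18863560 to 23095692 fragments each, summed over genes, with fragments on 14821 to 15051 genes. Levels are given as CPM, fragments per 1000000 of the TMM-scaled library total, in replicates 1, 2 and 3 in that order. Folds come from a count model with the replicate number as a block, which compares libraries of the same number. Libraries with the same number deviated together (r between 0.361 and 0.489 for the 3 pairs under DEM), and replicate 3 has a different series of library codes from replicates 1 and 2. A gene was called at a Benjamini-Hochberg adjusted p below 0.05 over all tested genes.

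Under DEM, 1283 genes were higher in T-N2G cells (10.3% of those tested) and 1162 were lower (9.32%). Most of these differences were small: 950 of the higher and 920 of the lower calls were below 1.5-fold. Calls of at least 2-fold were more often higher than lower, with 170 genes higher (1.36%) and 85 lower (0.682%), and of at least 4-fold with 61 and 14. Of the 170 genes, 90 averaged below 1 CPM in mock cells. The replicate block mattered for the count: without it 325 genes were higher (2.61%) and 138 lower (1.11%), all of them called in the same direction with it. Of the genes at least 2-fold higher, 127 kept their call without the block, and of those at least 2-fold lower 29 did. With replicates 1 and 2 alone the calls were 866 higher and 715 lower, of which 150 and 53 were at least 2-fold, and replicate 3 alone has 1 library per group and allows no test. Without mock DEM replicate 3 the higher calls were 804. The balance between directions moved with the scaling and the filter: upper quartile normalization gave 1123 higher and 1434 lower, and no filter on low counts 1162 and 1329. The groups did not overlap in 1286 genes with T-N2G above (10.3%) and in 1166 genes with T-N2G below (9.35%). In what follows, a count of called members of a gene list is given with the block and then without it. Where such a count with the block was 1 or 2, leaving out single libraries moved it by at most 2. The median log2 fold change over all tested genes was -0.0058.

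**Figure D1:**
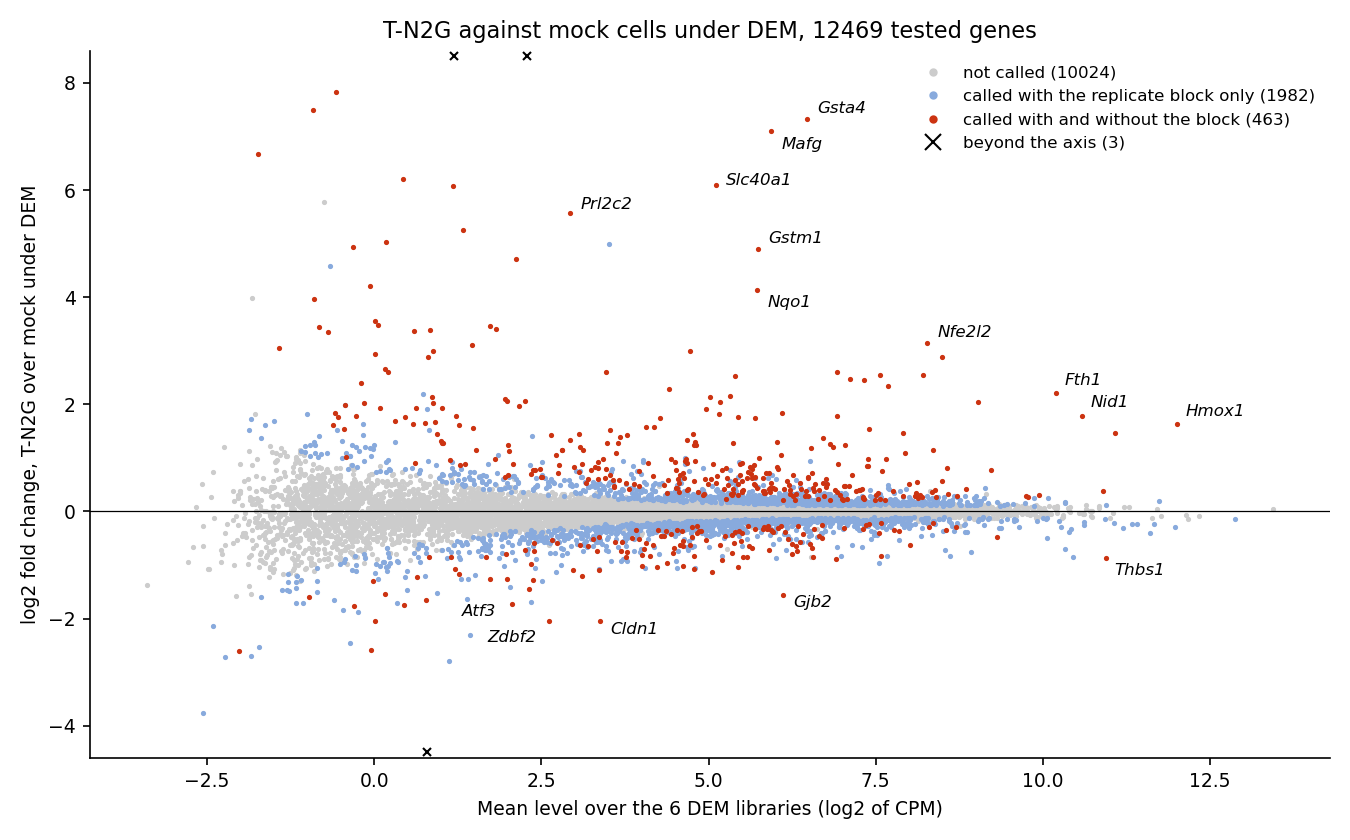
Each point is one of the 12469 tested genes under DEM, with its mean level over the 6 DEM libraries on the horizontal axis (log2 of CPM) and its log2 fold change, T-N2G over mock, on the vertical axis. Red points were called with and without the replicate block, blue points with it only and grey points not. Crosses mark 3 genes whose fitted values lie beyond the axis and whose level in 1 group was 0. The large differences are mostly upward, from Hmox1 and Fth1 at high levels to Gsta4, Mafg and Slc40a1 at low levels in mock cells.

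The introduced factors were high in every T-N2G library. Mafg measured 0.932, 0.878 and 0.820 CPM in mock cells and 136, 95.7 and 132 CPM in T-N2G cells, a log2 fold change of 7.11 ± 0.10 (SE; adjusted p = 9.16e-19). Nfe2l2 measured 59.5, 66.7 and 61.1 CPM in mock cells and 573, 454 and 641 CPM in T-N2G cells, a log2 fold change of 3.14 ± 0.11 (adjusted p = 5.50e-13). The groups were far apart for both genes. Fragments on these 2 genes may come from T-N2G or from the cells' own genes and cannot be told apart. The fragments on Maff (3.49 to 5.69 CPM over the 6 libraries) and Mafk (1.97 to 2.68 CPM) overlapped between the groups, and neither gene was called (adjusted p = 0.994 and 0.728). Since the position of the deletions is not given in the sources used here, these fragments check no deletion. Of the 11 tested members of the list of CNC factors, small Mafs and partners, 4 were higher and 2 lower (3 and 1 without the block; median log2 fold change 0.10). Keap1, the adaptor that holds Nrf2 down, was among the higher ones. Its values were 70.5, 79.2 and 78.1 CPM in mock cells and 99.1, 102 and 96.8 CPM in T-N2G cells (1.31-fold, adjusted p = 4.75e-06). Nfe2l1, a related CNC factor known for control of proteasome genes, was lower, by 0.22 on the log2 scale (346, 346 and 363 CPM against 304, 310 and 294 CPM; adjusted p = 0.000527). Bach1, a repressor that competes for the same element, was 1.14-fold higher with the block (adjusted p = 0.0131) but not without it (0.209) and not without mock DEM replicate 3 (0.165).

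Genes for the first step of glutathione synthesis and for import of its precursor were 5- to 6-fold higher in T-N2G cells. Glutamate-cysteine ligase performs the first step of glutathione synthesis. Its catalytic subunit Gclc measured 43.2, 38.8 and 44.7 CPM in mock cells and 229.7, 213 and 266 CPM in T-N2G cells (log2 fold change 2.48 ± 0.05, adjusted p = 3.32e-16). Its modifier subunit Gclm, whose promoter is printed above, measured 50.5, 47.2 and 50.7 CPM against 274, 224 and 319 CPM (2.45 ± 0.07, adjusted p = 2.92e-14). The cystine importer Slc7a11 went from 13.6, 11.1 and 12.0 CPM to 69.2, 54.1 and 91.6 CPM (2.54 ± 0.12, adjusted p = 3.92e-11). In these 3 genes the lowest T-N2G library was several-fold above the highest mock library. Esd, S-formylglutathione hydrolase, was 5.09-fold higher. Gsr, which returns oxidized glutathione to its reduced form, had a log2 fold change of 1.17 ± 0.07. The exception in direction was Chac1, an enzyme that degrades glutathione and a known target of the stress factor Atf4, at 18.6, 22.1 and 20.1 CPM in mock cells and 12.8, 13.8 and 10.8 CPM in T-N2G cells (lower 1.63-fold, adjusted p = 1.34e-05). In all, 7 of the 15 tested members of this list were higher and 1 lower (5 and 1 without the block), and 7 were not called. Because so many members did not move, the list's median log2 fold change was only 0.023.

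Glutathione S-transferases, which join glutathione to electrophiles, held the largest differences of the detoxifying enzymes. Gsta4, which acts on lipid aldehydes, measured 0.834, 1.11 and 1.38 CPM in mock cells and 148, 167 and 216 CPM in T-N2G cells, 160-fold higher (log2 fold change 7.32 ± 0.13, adjusted p = 7.12e-17). Gstm1 measured 2.65, 4.99 and 2.85 CPM against 80.6, 119.8 and 108 CPM (29.7-fold, adjusted p = 8.40e-15). Microsomal Mgst1 went from 0.245, 1.02 and 0.431 CPM to 4.90, 6.46 and 6.97 CPM (11-fold). Gsta1 had no fragment in the 3 mock libraries and 1.12 to 1.62 CPM in T-N2G cells, at least 28.9-fold higher when mock cells are set at 3 fragments over the group. Alpha and mu class transferases are similar in sequence, so fragments may be split between copies and the values of single copies are uncertain. Altogether 7 of 21 tested members were higher and 1 lower (7 and 0 without the block), and 9 of the 30 listed were removed for low counts. The peroxidases Gpx1 and Gpx4, which consume glutathione to reduce peroxides, were not called (log2 fold changes 0.09 and 0.09, adjusted p = 0.18 and 0.0833).

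Enzymes that reduce quinones, aldehydes and related compounds also held clear differences. The quinone reductase Nqo1, a standard readout of Nrf2 activity, measured 4.66, 7.49 and 5.09 CPM in mock cells and 87.2, 103 and 111 CPM in T-N2G cells (17.6-fold, adjusted p = 2.24e-13). Prostaglandin reductase Ptgr1 was 3.37-fold, biliverdin reductase Blvrb 3.76-fold and carbonyl reductase Cbr3 2.44-fold higher. Ugt1a6a, a glucuronosyltransferase that shares exons with its neighbours, had no fragment in mock cells and 0.595 to 1.40 CPM in T-N2G cells. Ces2g, a carboxylesterase, was the 1 member that was lower (4.66, 5.27 and 6.90 CPM against 2.48, 2.39 and 2.11 CPM, adjusted p = 0.000265). Of 33 tested members 11 were higher and 1 lower (9 and 1 without the block), with a median log2 fold change of 0.10 and 10 members removed for low counts. Pir, an iron-binding nuclear protein and a known Nrf2 target, had at most 0.196 CPM in mock cells and 4.81, 4.92 and 4.97 CPM in T-N2G cells (38.0-fold).

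In the thioredoxin and peroxiredoxin system, which keeps protein thiols reduced, the reductase and the repair enzyme were among the highest. Srxn1, which restores overoxidized peroxiredoxins, measured 32.0, 35.5 and 34.7 CPM in mock cells and 207, 173 and 248 CPM in T-N2G cells (log2 fold change 2.61 ± 0.08, adjusted p = 1.25e-13). Txnrd1 measured 214, 196 and 199.7 CPM against 952, 670.0 and 904 CPM (2.03 ± 0.07, adjusted p = 1.32e-12). Prdx6 went from 60.9, 55.0 and 49.4 CPM to 341, 248 and 385 CPM (5.84-fold), and the groups of these 3 genes were widely separated, with T-N2G replicate 2 the lowest of its group each time. Catalase (Cat) was 2.31-fold higher. Cytosolic superoxide dismutase Sod1 had a log2 fold change of 0.98 ± 0.05, while mitochondrial Sod2 differed by 0.25 with the block only (adjusted p = 0.00196, and 0.191 without it). Txnip, which inhibits thioredoxin, was lower by 0.52 with the block only (adjusted p = 8.09e-08, and 0.0994 without it). The list held 9 higher and 4 lower calls among 24 tested members (7 and 0 without the block; median log2 fold change 0.095).

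Genes for iron export, iron storage and heme breakdown were higher in T-N2G cells. The iron exporter ferroportin, Slc40a1, measured 0.687, 1.25 and 1.04 CPM in mock cells and 47.1, 89.8 and 67.1 CPM in T-N2G cells (68.0-fold, adjusted p = 8.40e-15). Its partner ferroxidase Heph, which oxidizes iron as it leaves the cell, went from at most 0.0491 CPM to 2.33, 1.73 and 3.94 CPM (adjusted p = 1.22e-08). The heme transporter Slc48a1 measured 86.8, 82.3 and 88.9 CPM against 615, 564 and 721 CPM (7.33-fold, adjusted p = 3.32e-16). For all of these the 2 groups did not overlap. Heme oxygenase Hmox1, which opens the heme ring, was already abundant in mock cells under DEM at 1723, 2084 and 2192 CPM and reached 5688, 6021 and 6929 CPM in T-N2G cells (log2 fold change 1.63 ± 0.10, adjusted p = 1.15e-09). The ferritin subunits store the released iron. Fth1 measured 376, 458 and 416 CPM against 1741, 1933 and 2109 CPM (4.62-fold), and Ftl1 1075, 1155 and 1228 CPM against 2946, 3277 and 3341 CPM (2.77-fold). Ferritin genes have many processed copies in the genome, so part of their fragments may be assigned elsewhere. Compared per length, on the FPKM scale, Hmox1 (4482 ± 476), Ftl1 (4129 ± 281) and Fth1 (2592 ± 254; mean ± SD, n = 3) had the highest T-N2G levels of the 170 genes at least 2-fold higher, ahead of Nid1 (403 ± 27.2). The mock levels on the same scale were 1445 ± 176, 1495 ± 97.6 and 561 ± 54.5. Transferrin receptor Tfrc, which imports iron, was also higher, with a log2 fold change of 0.85 ± 0.12 (adjusted p = 4.29e-05). Of 28 tested members 14 were higher and 2 lower (12 and 0 without the block; median log2 fold change 0.13). Both lower calls were absent from the fit without the block, and with single libraries left out between 1 and 2 of them stood.

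**Figure D2:**
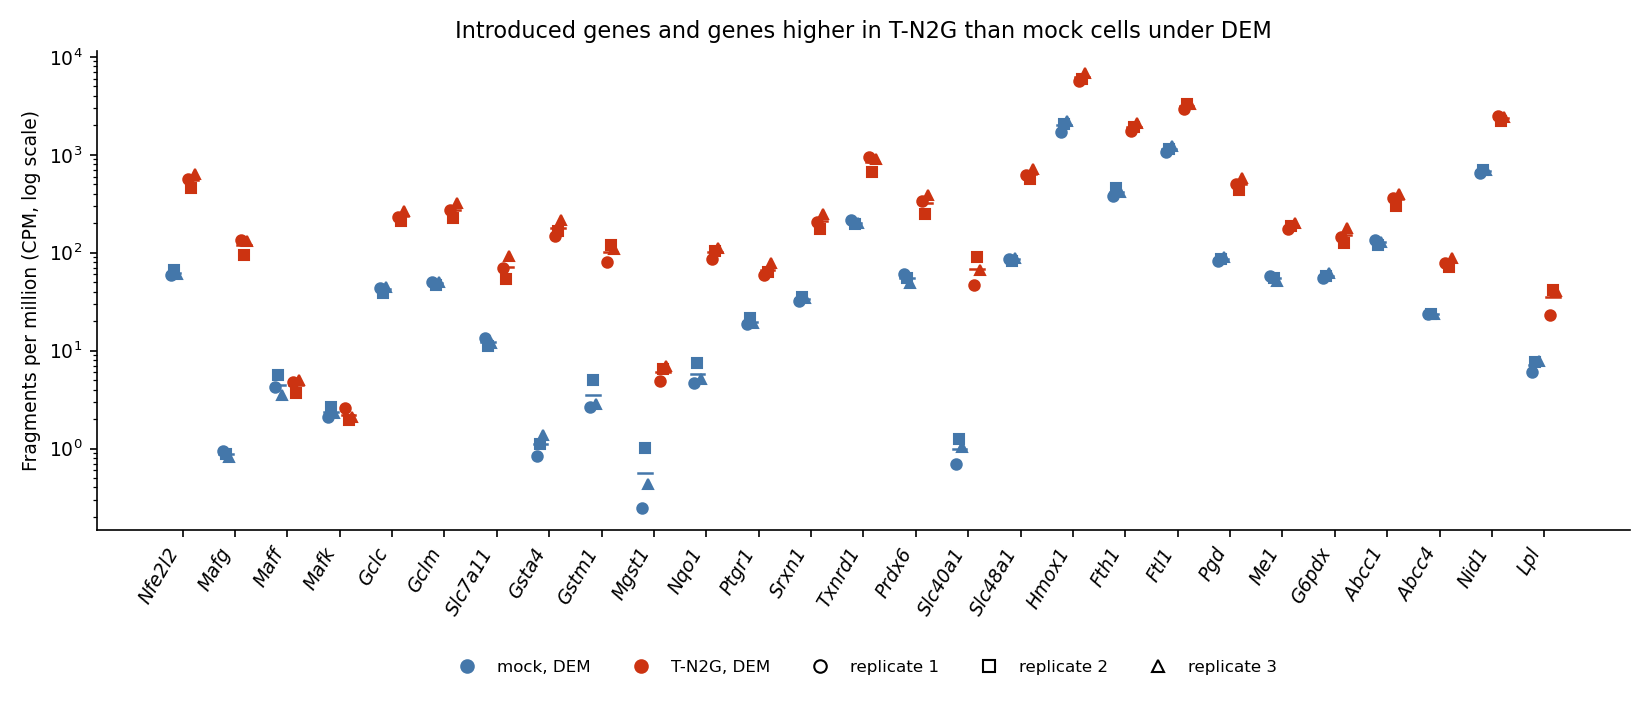
Levels in CPM (log axis) of the introduced factors, of Maff and Mafk and of 23 genes higher in T-N2G cells, in each of the 6 DEM libraries; blue is mock, red is T-N2G, the marker shape gives the replicate and the bar the group mean. The red and blue points are separate for every gene shown except Maff and Mafk, from Gsta4 near 1 CPM in mock cells to Hmox1 above 1723 CPM.

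Genes for several enzymes that make NADPH, the electron donor for glutathione and thioredoxin reductases, were higher in T-N2G cells. Phosphogluconate dehydrogenase Pgd measured 82.3, 86.0 and 90.1 CPM in mock cells and 498, 440.4 and 582 CPM in T-N2G cells (5.85-fold, adjusted p = 1.08e-14). Malic enzyme Me1 was 3.43-fold, the pathway's entry enzyme G6pdx 2.57-fold and transketolase Tkt 1.69-fold higher. These calls held with and without the block. Of 18 tested members 8 were higher and 1 lower (5 and 0 without the block; median log2 fold change 0.13), and the higher count was 5 and the lower 3 without mock DEM replicate 2. Among 9 tested ABC transporters, 2 pumps that export glutathione conjugates were clearly higher. Abcc4 measured 23.7, 23.7 and 23.9 CPM against 79.3, 71.6 and 88.6 CPM (3.35-fold, adjusted p = 1.48e-12). Abcc1 measured 134, 119 and 129 CPM against 362, 297 and 399 CPM (2.75-fold). With the block, 3 of the 9 were higher and 2 lower, and without it only these 2 were called. Abcg2, which exports porphyrins and drugs, was lower by 0.23 with the block only (adjusted p = 0.00838, and 0.101 without it).

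Protein disposal genes differed by less. Sqstm1, the autophagy receptor p62 that also binds Keap1, measured 246, 302 and 282 CPM in mock cells and 441, 489 and 516 CPM in T-N2G cells (1.75-fold, adjusted p = 1.03e-10). Tfe3, a factor that drives lysosomal genes, was 1.60-fold higher. These were the 2 autophagy and lysosome genes called without the block. With it 14 of 44 were higher and 4 lower, and the higher count was 6 when mock DEM replicate 3 was left out, 7 when T-N2G DEM replicate 2 was, and 8 when mock DEM replicate 1 or T-N2G DEM replicate 3 was. The lower count was 2 without mock DEM replicate 1. Of 40 proteasome genes 20 were higher and 3 lower (5 and 0 without the block; median log2 fold change 0.13), and 13 were higher without mock DEM replicate 3; the lower count was 1 without mock DEM replicate 2, T-N2G DEM replicate 1 or T-N2G DEM replicate 2. The largest of them was Psmd5, a chaperone of proteasome assembly, at 72.3, 71.9 and 68.9 CPM against 118, 111 and 122 CPM (1.64-fold). The regulatory subunits Psmd7 and Psmd11 were 1.35- and 1.29-fold higher. Psme2, a subunit of the interferon-inducible activator, was lower by 0.39 with the block only (adjusted p = 0.000551, and 0.231 without it).

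Some metabolic and matrix genes differed about as much as detoxifying enzymes such as Ptgr1 and Blvrb, but by less than Gsta4, Gstm1 and Nqo1. Nid1, a basement membrane linker of laminin and collagen, measured 653, 706 and 705 CPM in mock cells and 2510, 2205 and 2431 CPM in T-N2G cells (3.46-fold, adjusted p = 1.25e-13). Lipoprotein lipase Lpl went from 5.99, 7.63 and 7.81 CPM to 23.2, 41.9 and 40.2 CPM (4.87-fold), and Pdk4, which turns pyruvate away from oxidation, from 11.3, 19 and 6.26 CPM to 52.9, 71.6 and 34.1 CPM (4.40-fold). In both groups Pdk4 was highest in replicate 2 and lowest in replicate 3, and the groups did not overlap. Gbe1, the glycogen branching enzyme, was 3.33-fold higher (adjusted p = 2.92e-08). In the lists these genes belong to, lipid uptake, storage and oxidation had 9 higher and 3 lower of 25 tested (5 and 1 without the block), and glucose import and glycolysis had 5 and 2 of 25 (3 and 0 without it). The 3 lower calls became 1 without mock DEM replicate 1, mock DEM replicate 3 or T-N2G DEM replicate 3, and the 2 became 0 without mock DEM replicate 2 or T-N2G DEM replicate 2. Ppard and Pparg, nuclear receptors for fatty acids, were 1.79- and 1.36-fold higher. Angptl4, an inhibitor of lipoprotein lipase, was lower at 2.16, 3.24 and 2.42 CPM in mock cells and 0.991, 1.17 and 0.324 CPM in T-N2G cells (adjusted p = 0.000229). Sterol and fatty acid synthesis had 5 higher and 1 lower call of 31 tested and 0 of either without the block. The higher count was 10 without T-N2G DEM replicate 1 and 3 without mock DEM replicate 3 or T-N2G DEM replicate 2. The respiratory chain, with 44 genes tested, had 1 higher and 2 lower calls and none without the block, and 0 to 2 higher and 1 to 3 lower with single libraries left out; its fold changes ran from -0.23 to 0.20 on the log2 scale.

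Some genes of other stress responses were lower in T-N2G cells, most of them by less than 2-fold. Atf4 induces genes for amino acid supply and, under lasting stress, for cell death. Of 34 tested members of its list 11 were lower and 4 higher (3 and 1 without the block; median log2 fold change -0.13). The largest difference was in Atf3, a stress-induced factor, at 4.81, 9.48 and 4.88 CPM in mock cells and 1.83, 1.97 and 1.94 CPM in T-N2G cells (3.30-fold lower, adjusted p = 8.36e-06). The pseudokinase Trib3, a brake on Akt and Atf4, was 1.47-fold lower (adjusted p = 0.000816). Ddit4, an inhibitor of mTORC1, was lower by 0.83 with the block only (adjusted p = 6.45e-07, and 0.158 without it). The amino acid transporter Slc1a4 went the other way, at 79.4, 85.5 and 94.2 CPM against 153, 156 and 166 CPM (1.84-fold higher, adjusted p = 9.51e-10). Among 26 tested genes of the unfolded protein response 9 were lower and 1 higher with the block, and 1 and 0 without it. The lower count was 17 without mock DEM replicate 3, 5 without mock DEM replicate 1 and 6 without any 1 of the T-N2G DEM libraries. Herpud1, which helps clear misfolded proteins from the endoplasmic reticulum, was the one called in both fits (119, 113 and 115 CPM against 85.2, 86.7 and 81.3 CPM, adjusted p = 3.60e-06). The inducible chaperones Hspa1b (51.7, 77.5 and 48.3 CPM against 32.8, 33.2 and 31.2 CPM), Hspa1a and Hspb1 were 1.81-, 1.65- and 1.57-fold lower. Hspa1a and Hspa1b are near-identical in sequence and their fragments are uncertain between them. Over the 25 heat shock genes 5 were lower and 4 higher (3 and 0 without the block). Their median log2 fold change, -0.0047, was close to the -0.0058 of all tested genes. The heat shock list as a whole was thus not shifted lower. The higher count was 0 without mock DEM replicate 3, against 2 with T-N2G DEM replicate 3 left out. One of the higher calls, the small chaperone Hspb8, measured 0.393, 0.832 and 0.216 CPM against 0.743, 1.31 and 1.84 CPM, a log2 fold change of 1.43 that overlapped between the groups (adjusted p = 0.00772, and 0.139 without the block). Of 20 cytosolic tRNA synthetases 1 was lower with the block and none without it, and 0 to 2 with single libraries left out.

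Immediate early genes, which respond within minutes to growth factors and stress, and feedback inhibitors of the ERK kinase pathway held mostly lower calls. Of 29 tested immediate early genes 13 were lower and 1 higher (6 and 0 without the block; median log2 fold change -0.33). The orphan receptor Nr4a1 measured 22.8, 30.9 and 28.5 CPM in mock cells and 14.5, 12.6 and 15.1 CPM in T-N2G cells (1.95-fold lower, adjusted p = 3.64e-06). The phosphatase Dusp1, which switches off stress kinases, measured 46.1, 49.3 and 48.8 CPM against 25.1, 22.1 and 30.1 CPM (1.89-fold lower). Klf4 was 1.73-fold and Junb, a subunit of the AP-1 factor, 1.55-fold lower. The groups did not overlap in these 4 genes. Of 17 ERK feedback genes 7 were lower and none higher (1 and 0 without the block; median -0.36). Spry1, an inhibitor of receptor tyrosine kinase signalling, was the member called in both fits, at 48.4, 52.2 and 54.7 CPM against 29.3, 30.9 and 30.1 CPM (1.72-fold lower, adjusted p = 7.68e-08). Dusp6, the phosphatase of ERK, was lower by 0.70 with the block only (adjusted p = 0.000499, and 0.113 without it).

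Targets of the tumour suppressor p53 gave 14 lower and 1 higher call of 27 tested (3 and 1 without the block; median log2 fold change -0.21). Pmaip1, which encodes the cell death protein Noxa, measured 114, 123 and 107 CPM in mock cells and 66.3, 75.6 and 73.7 CPM in T-N2G cells (1.60-fold lower, adjusted p = 3.38e-08). Bax, another cell death gene, was the exception at 46.4, 50.7 and 53.4 CPM against 63.3, 62.4 and 66.0 CPM (1.27-fold higher, adjusted p = 0.000291). Among 23 tested NF-kB targets and cytokines 9 were lower and 3 higher (1 and 1 without the block). The macrophage growth factor Csf1 was higher, at 445, 393 and 476 CPM against 772, 604 and 886 CPM (1.71-fold, adjusted p = 1.26e-08). Nfkb2, a subunit of NF-kB, was 1.28-fold lower (adjusted p = 5.67e-05). The chemokine Cxcl12 was lower by 0.70 with the block only (1478, 1774 and 1483 CPM against 905, 1356 and 732 CPM; adjusted p = 9.12e-06, and 0.117 without it). The type I interferon list had the lowest median, -0.49, but only 6 of its 30 tested members were lower and 1 higher, none was called without the block, and with single libraries left out 1 (without mock DEM replicate 3) to 9 (without T-N2G DEM replicate 1) were lower, with 2 without T-N2G DEM replicate 3 and 3 without mock DEM replicate 1. In vehicle the median of that list was -0.44.

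**Figure D3:**
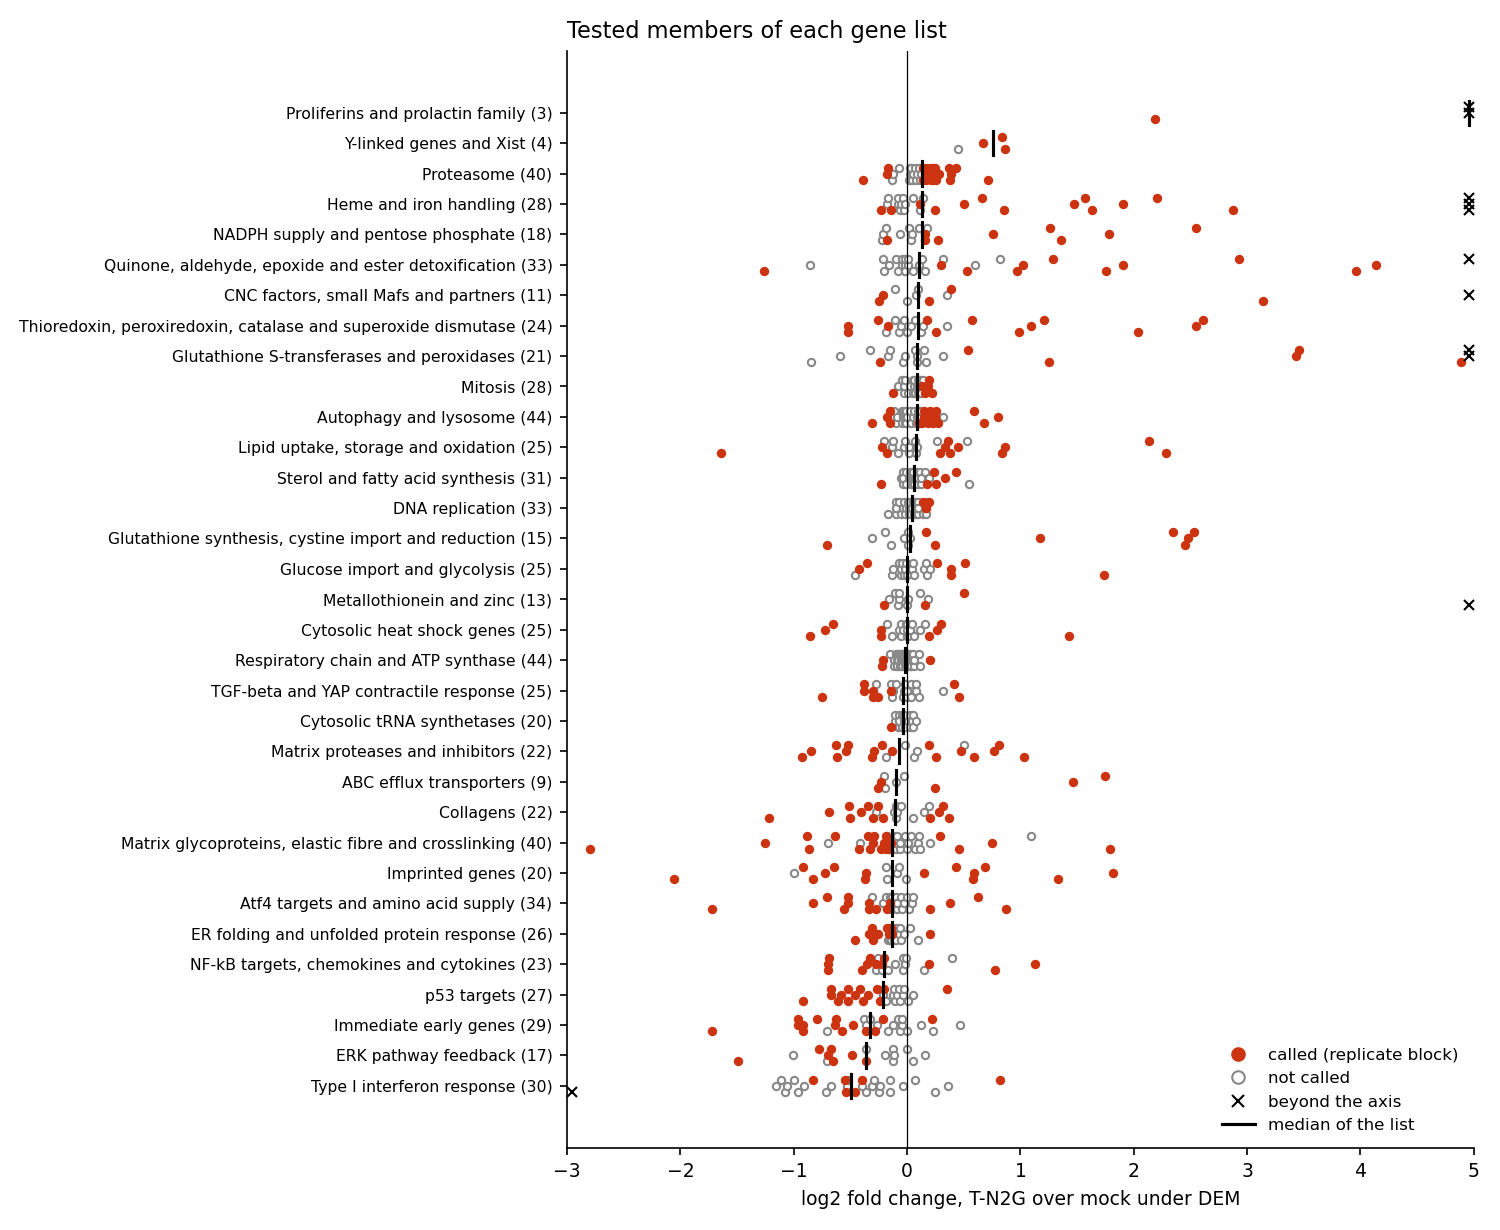
Log2 fold change, T-N2G over mock under DEM, of each tested member of the 33 gene lists, ordered by the list median (black bar), with the number tested in brackets. Filled red points were called with the replicate block, open points were not, and crosses lie beyond the axis. The median of the proliferin list, 5.56, also lies beyond the axis, and its bar is drawn at the edge. Defence lists show a few members far to the right and a median near 0. The type I interferon list has the lowest median, -0.49, with few members called. Other lists also have medians to the left of 0, among them immediate early genes at -0.33 and ERK feedback at -0.36.

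Matrix genes were called in both directions. Of 22 collagens 9 were lower and 4 higher (1 and 2 without the block; median log2 fold change -0.11). Col8a1, a short-chain collagen, measured 86.9, 88.3 and 82.0 CPM in mock cells and 59.1, 59.1 and 62.5 CPM in T-N2G cells (1.42-fold lower, adjusted p = 7.14e-07). The basement membrane collagens Col4a1 and Col4a2 were 1.24- and 1.22-fold higher (adjusted p = 1.78e-05 and 3.42e-05). The main fibrillar collagen Col1a1 was lower by 0.41 with the block (adjusted p = 2.72e-06) and fell just short without it (0.0527). Of 40 matrix glycoproteins and crosslinking enzymes 16 were lower and 4 higher (4 and 1 without the block; median -0.13). Thrombospondin Thbs1 measured 2652, 2034 and 2961 CPM against 1594, 1355 and 1221 CPM (1.82-fold lower, adjusted p = 8.12e-07). The fibulin Efemp1 was 1.84-fold and the lysyl oxidase Loxl3 1.56-fold lower. Elastin, Eln, varied widely between mock libraries (0.589, 4.07 and 6.69 CPM against 0.0495, 0.515 and 1.08 CPM), overlapped between the groups and was called with the block only (adjusted p = 1.12e-06, and 0.291 without it). Among 22 matrix proteases and inhibitors 10 were lower and 7 higher (2 and 1 without the block), and 3 were higher without mock DEM replicate 2, against 4 with T-N2G DEM replicate 1 left out. Plau, the urokinase protease, was 1.45-fold lower (adjusted p = 2.81e-06), and Timp3, an inhibitor of metalloproteases, was lower by 0.85 with the block only (adjusted p = 2.75e-09, and 0.118 without it). The contractile TGF-beta and YAP list had 7 lower and 2 higher calls of 25 and none without the block.

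The naming rule gave 10 decreases, between 2.38- and 4.15-fold. These are not the largest called with the block, where 14 genes were at least 4-fold lower. The largest fitted decrease, 484-fold, was in a gene at 0 in T-N2G cells, so its size comes from the fit and is not a measured ratio. Calls beyond 4.15-fold, such as Eln at 6.97-fold, did not pass the rule. Gjb2, the gap junction protein connexin 26, measured 124, 68.9 and 119 CPM in mock cells and 41.6, 23.9 and 40.2 CPM in T-N2G cells (2.93-fold lower, log2 fold change -1.55 ± 0.08, adjusted p = 3.10e-10). Replicate 2 was the lowest of each group, so the ratio was alike in the 3 pairs. Cldn1, a tight junction claudin, measured 13.1, 23.3 and 13.9 CPM against 3.47, 6.28 and 2.43 CPM (4.13-fold lower, adjusted p = 5.35e-08). Dkk2, a secreted Wnt modulator, was 3.34-fold lower, and Zdbf2, an imprinted gene, measured 6.92, 8.0 and 15 CPM against 2.33, 2.06 and 2.65 CPM (4.15-fold lower). The others by the naming rule were Ctla2a, Rerg, Ces2g and Plekhg1, between 2.38- and 2.74-fold lower, together with Atf3 and Angptl4.

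**Figure D4:**
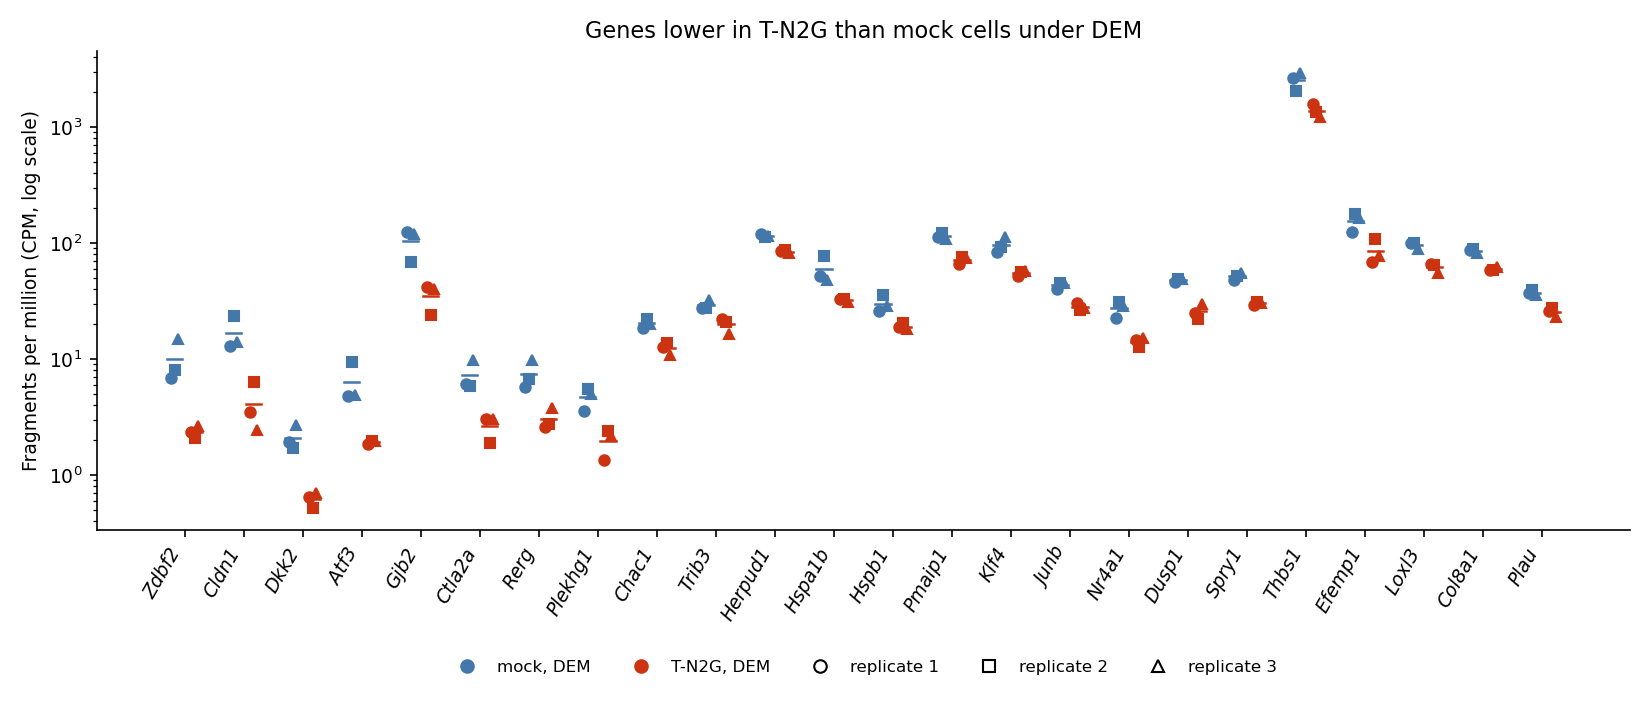
Levels in CPM (log axis) of 24 genes lower in T-N2G than in mock cells under DEM, in each of the 6 libraries; colours, marker shapes and bars are as in the plot of higher genes. The groups are separate in all 24, by 4.15-fold for Zdbf2 and by 1.37-fold for Herpud1.

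Several differences lay outside stress biology. The proliferins, placental prolactin-like hormones that cultured mouse fibroblasts also make, were at or near 0 in mock cells. Prl2c3 had no fragment in mock cells and 9.31, 9.37 and 10.4 CPM in T-N2G cells, at least 210.2-fold higher, and Prl2c2 went from 0.343, 0.416 and 0.173 CPM to 18, 17.5 and 9.45 CPM (47.2-fold). Prl2c4 measured 0.54, 0.0925 and 1.04 CPM against 2.68, 4.54 and 1.03 CPM, overlapped between the groups and was called with the block only (adjusted p = 0.0091, and 0.177 without it). These were the 3 tested members of their list, all higher (2 without the block, and 2 without mock DEM replicate 2, T-N2G DEM replicate 1 or T-N2G DEM replicate 2). The proliferin genes are near-identical copies, so the split between them is uncertain. The somatostatin receptor Sstr5, also at 0 in mock cells, measured 3.67, 2.90 and 7.13 CPM in T-N2G cells, at least 96.97-fold higher. Abca8b, a lipid transporter, was at most 0.0981 CPM in mock cells and 2.03 to 2.39 CPM in T-N2G cells. Of 20 tested imprinted genes 7 were higher and 7 lower (4 and 1 without the block). Peg10, a gene derived from a retrotransposon, measured 17.0, 16.7 and 13.7 CPM against 53.6, 68.6 and 44.9 CPM (3.51-fold higher, adjusted p = 4.39e-10), and Mest was 2.51-fold higher. DNA replication and mitosis genes differed little. They had 4 of 33 and 5 of 28 higher calls (0 and 1 without the block). The mitosis count was 3 without mock DEM replicate 2, mock DEM replicate 3 or T-N2G DEM replicate 2, and 7 without mock DEM replicate 1. Their fold changes lay between -0.17 and 0.22 on the log2 scale.

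The fibroblast markers summed to 13809 to 16741 CPM in mock cells and 11820 to 14778 CPM in T-N2G cells, with Fn1, Col1a1 and Vim the most abundant and Lum, which encodes lumican, near 0 in all 6 libraries. Most listed markers of other cell types were below 1 CPM in all 6 libraries. Adgre1 and Fcgr1 (macrophage), Myf5 and Ckm (skeletal muscle), Adipoq and Plin1 (adipocyte) and Ibsp (bone) had no fragment in the 6 libraries, and Epcam, Cdh1, Pecam1 and Ptprc stayed below 1 CPM. Summed levels were 92.1 to 135 CPM in mock and 79.1 to 118 CPM in T-N2G cells for 8 epithelial markers, 6.57 to 11.5 and 5.0 to 7.88 CPM for 7 endothelial ones, and 1.43 to 2.01 and 1.49 to 2.65 CPM for 7 macrophage ones. They were 2.77 to 5.87 and 1.31 to 7.78 CPM for skeletal muscle, 90.2 to 94.5 and 85.1 to 86.8 CPM for bone and cartilage, and 19.6 to 21.5 and 26.6 to 28.2 CPM for adipocytes, where Pparg made up most of the sum. In the bone and cartilage list Runx2 and Sox9 made up most of the sum, and the other members stayed below 1 CPM. The keratins Krt19 (68.1 to 118 CPM) and Krt14 (4.16 to 25.5 CPM) were present in both groups and overlapped between them. With the block Krt14 was 1.72-fold higher (adjusted p = 3.84e-05, and 0.686 without it) and Krt19 1.24-fold lower (0.000307, and 0.396 without it), and their part in the results was not tested. The Y-linked genes moved with the groups: Ddx3y measured 5.69, 6.10 and 5.35 CPM in mock cells and 10.7, 9.60 and 10.4 CPM in T-N2G cells (1.79-fold higher, adjusted p = 1.11e-05), and Uty and Eif2s3y were 1.82- and 1.59-fold higher. These 3 of the 4 tested Y-linked genes were called in both fits, though Eif2s3y was not with replicates 1 and 2 alone (adjusted p = 0.0758). The other, Kdm5d, had 52, 48 and 48 fragments in mock cells and 72, 67 and 48 in T-N2G cells and was not called (adjusted p = 0.0729). Xist had 0 to 5 fragments per library. The T-N2G and mock populations thus differed in Y-linked RNA as well as in T-N2G, and the part of such a difference between populations in the results was not tested. In RNA from whole cultures, fewer cells with a gene on and less RNA per cell cannot be told apart.

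The vehicle libraries show how far these differences were there without DEM. In vehicle 381 genes were higher in T-N2G cells (3.06%) and 404 lower (3.24%). Of the 170 genes at least 2-fold higher under DEM, 92 were also called higher in vehicle (54.1% of the former and 24.1% of the latter) and none lower, and the 170 genes' median log2 fold change was 1.68 under DEM and 0.75 in vehicle. Of the 85 genes at least 2-fold lower, 48 were also called lower in vehicle (56.5% and 11.9%), with medians of -1.30 and -0.75. These medians are descriptions, since the genes were chosen by their values under DEM. Over all tested genes the T-N2G effect itself was more positive under DEM in 227 genes (1.82%) and more negative in 122 (0.978%), and without the block in 52 and 2. Of the 20 genes named for the largest folds, 6 were among them. This count is also a description, since the 20 were chosen by their folds under DEM. Mafg (8.04 in vehicle and 7.11 under DEM) and Nfe2l2 (3.48 and 3.14) had no called difference in log2 fold change between the conditions (adjusted p = 0.111 and 0.361). Gsta4, Slc40a1 and Pir had larger differences from mock under DEM, and for Gjb2 and Atf3 the vehicle groups lay close together (adjusted p = 0.803 and 0.455 in vehicle).

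**Figure D5:**
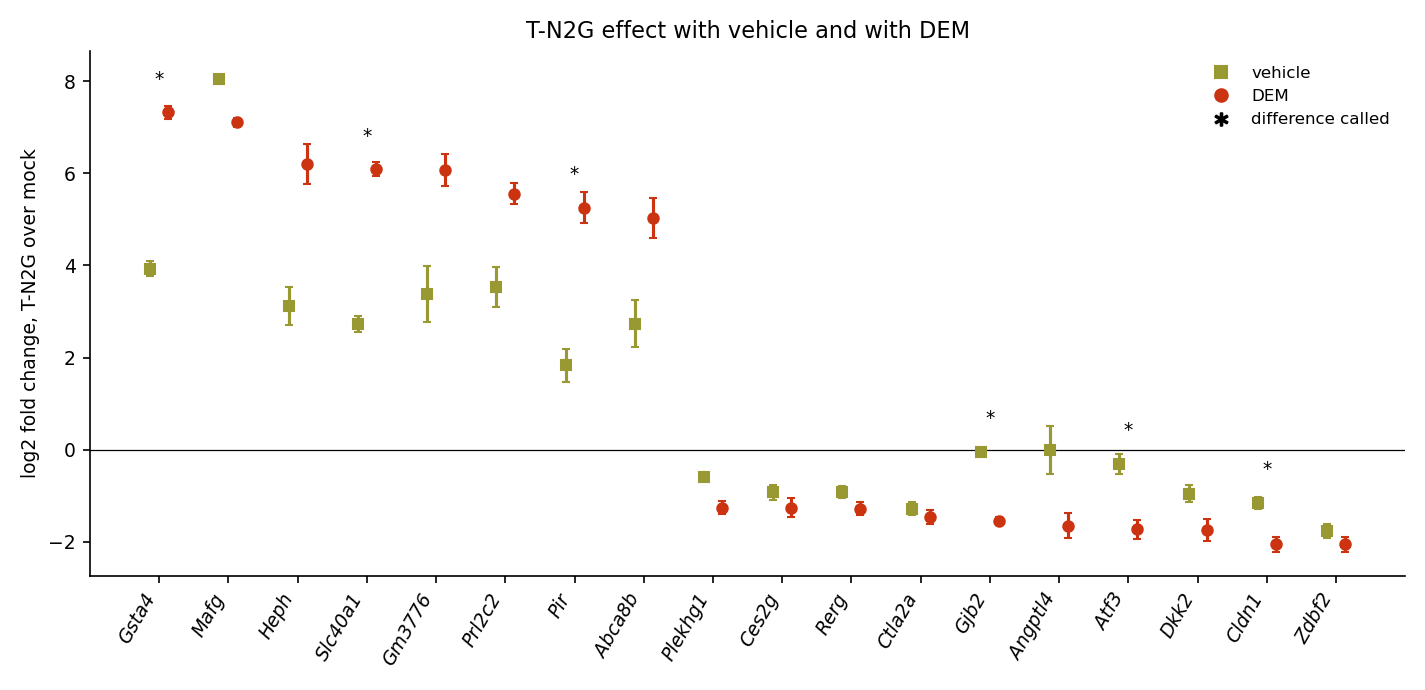
Log2 fold change, T-N2G over mock, in vehicle (squares) and under DEM (circles) with the standard error of the fit, for 18 of the 20 genes named for the largest folds under DEM; the other 2, Prl2c3 and Sstr5, had no fragment in mock cells under DEM. Stars mark the 6 genes whose difference between the conditions was called. The symbols lie furthest apart for Gsta4, Slc40a1, Pir and Gjb2 among the starred genes, and Mafg is the one higher gene with a larger value in vehicle.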

How the data were processed

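Polyadenylated RNA had been prepared with a strand-specific kit, per the labels' protocols. The submitters' processing notes name bcl2fastq 2.16.0.10, TopHat2 2.0.8b, Cuffdiff 2.1.1 and the build mm9; the gene annotation and strand setting are not given in the sources used here. The deposited table holds estimated counts of raw fragments per gene and library, of which 98.3% are whole numbers (tolerance 0), and FPKM, which the authors scaled by length and library size. A FAIL status stood on 15 tested genes, none of them named.

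Counts were rounded and fitted in R 4.3.3 with edgeR 4.0.16 (quasi-likelihood, TMM, filterByExpr with a minimum count of 10), over all 12 libraries with a coefficient per group and the replicate number as a block. This left 12469 of 24318 genes. The common coefficient of variation was 0.0428 with the block and 0.110 without it. The pairing comes from the numbers in the titles: over all 4 groups, 18 same-number pairs had r from 0.361 to 0.631 and 36 other pairs from -0.422 to -0.00363. These r compare deviations from the group means, which sum to 0 within a group. Positive values for same-number pairs therefore push the other pairs below 0, and the negative range adds no separate evidence. CPM used TMM-scaled library sizes. Standard errors are the absolute log2 fold change over the root of F. Folds against a group at 0 used 3 fragments over the group. Alternatives were another scaling (RLE, upper quartile), filters, DESeq2 1.42.0, limma 3.58.1 on log2(FPKM + 1) and log2(FPKM + 0.1), fewer libraries and no block. Scripts were tested on simulated data.

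The lists and members were chosen with earlier results of these data known. Named were the introduced and deleted factors, the 10 largest changes each way (called in both fits, at least 2 CPM in the higher group, no overlap), and per list up to 4 genes called in both fits and 2 called with the block only in each direction. Hmox1, Gsr, Sod1, Tfrc, Gpx1, Gpx4, Ugt1a6a, Hspb8 and Kdm5d were named after their values were seen. Genes were matched to RefSeq windows by symbol or synonym (441 by synonym).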

Additional observations from a re-analysis of the deposited data

Results flagged for a closer look

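For 6 of the 20 genes named for their largest folds, the T-N2G effect under DEM differed from that in vehicle by the test of the difference itself (edgeR, replicate block). The 20 genes were chosen by their folds under DEM, so the count of 6 is a description. The ferroportin gene Slc40a1 had a difference of 3.362 in log2 fold change (SE 0.31, adjusted p = 2.33e-06): it averaged 1.96 CPM in mock and 12.9 CPM in T-N2G cells with vehicle. Gsta4 differed by 3.39 (SE 0.34, adjusted p = 6.36e-06), with 1.33 and 20.7 CPM in vehicle. Pir differed by 3.418 (SE 0.63, adjusted p = 0.00370), with 0.368 and 1.34 CPM in vehicle. These 3 were also called without the block (adjusted p = 0.0258, 0.0258 and 0.0311).

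The other 3 were lower in T-N2G cells, and their differences were not called without the block. Gjb2 differed by -1.509 (SE 0.11, adjusted p = 2.01e-07, and 0.237 without the block), with 103 ± 29.3 CPM in mock and 97.9 ± 13.7 CPM in T-N2G cells with vehicle (SD, n = 3). Atf3 differed by -1.413 (SE 0.30, adjusted p = 0.0131, and 0.20 without the block), with 3.27 and 2.64 CPM in vehicle. Cldn1 differed by -0.8905 (SE 0.21, adjusted p = 0.0295, and 1.00 without the block), with 24.3 and 11.1 CPM in vehicle.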

How the results depend on the processing

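No named gene that was called reversed its direction under the 16 alternatives, and reversals were not counted for named genes that were not called. Of 199 named called genes, 98 kept their calls under every alternative that tested them and 100 lost them without the replicate block. This split follows largely from the naming rule, which chose genes by whether they were called without the block. Over all tested genes, 463 of the 2445 calls held without the block. The filter of at least 1 CPM in 6 libraries tested 189 of the 199, which kept their calls. Among the genes called in both fits the 1 lost call was that of Eif2s3y with replicates 1 and 2 alone. With 1 library left out, between 15 and 27 of the 199 calls were lost. Without the replicate block the counts were 325 higher, 138 lower, 29 lower by at least 2-fold, and 52 more positive and 2 more negative under DEM than in vehicle. With replicates 1 and 2 only, 715 were lower, 53 lower by at least 2-fold, 133 more positive and 62 more negative. A filter of at least 1 CPM in 6 libraries, which tests fewer genes, left 110 higher and 52 lower by at least 2-fold, and no filter gave 186 more negative. On log2(FPKM + 1), where the pseudocount shrinks the folds of low genes, 74 were higher and 8 lower by at least 2-fold; on log2(FPKM + 0.1) 46 were lower by at least 2-fold. Leaving out each DEM library gave 804 to 1059 higher, 791 to 1058 lower, 156 to 179 higher and 61 to 93 lower by at least 2-fold, 153 to 194 more positive and 98 to 129 more negative. Apart from these constructions the cause was not tested. The other settings (RLE, upper quartile, DESeq2, the 6 DEM libraries alone) kept these counts within 1.5 times, though upper quartile normalization (1123 higher, 1434 lower) and no filter (1162, 1329) turned the balance of directions. Depth limits genes under about 1 CPM, where 1 library holds about 20 fragments.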
